A study of Mus musculus with 18 samples.

Results

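The polycomb, trithorax and histone lysine enzymes are the genes whose proteins place, remove or read methyl groups on histone lysines, with the partner subunits of their complexes. A list of 50 such genes was taken by symbol, and a gene was measured where a probe of the array named it and no other gene. Of these, 48 were measured among 19935 genes in all: 11 of polycomb repressive complex 2 (PRC2), 16 of polycomb repressive complex 1 (PRC1), 7 of the KMT2 complexes, 7 demethylases, 4 enzymes of histone H3 lysine 9 (H3K9) and 3 of lysines H3K36 and H3K79. Cbx6 and Suv39h1 were not analysed here. Messenger RNA was measured on 18 whole-transcript arrays of mouse embryonic stem cells, to ask which genes adriamycin changes depending on p53. R1E cells, an embryonic stem cell line, were given 0.5 µM adriamycin for 8 hours (n = 4 arrays), were given ultraviolet light (UV) at 25 J/m2 with 8 hours stated (n = 4), or were mock treated (n = 4). Embryonic stem cells of genotype p53-/- on a 129X1 x 129S1 background were given 0.5 µM adriamycin for 8 hours (n = 3) or left untreated (n = 3). All groups grew in serum with leukemia inhibitory factor. The labels give no genotype or strain for R1E, do not say whether the p53-/- cells were a single clone, and do not tell whether each array stands for its own culture. Adriamycin (doxorubicin) is a topoisomerase II poison that breaks DNA, and UV makes bulky lesions that block RNA polymerase.

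As background, PRC2 methylates lysine 27 of histone H3, and PRC1 ubiquitylates histone H2A and compacts chromatin, and both keep developmental genes silent in embryonic stem cells. The trithorax-related KMT2 complexes methylate lysine 4 of histone H3 at promoters and enhancers and oppose polycomb silencing. Demethylases take these marks off again, and the enzymes of lysine 9 keep heterochromatin and retroelements silent.

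Values are log2 intensities as deposited, a change is the difference of 2 group means in log2 with its moderated standard error (SE), and a call is a Benjamini-Hochberg adjusted p below 0.05 in limma over all 19935 genes. The R1E and p53-/- arrays were normalized separately, so changes were tested only within a set, and levels of different genes are not compared. Of 12 embryonic stem cell markers 12 were lower after adriamycin in R1E and 9 after UV, where 25.6% and 21.2% of all genes fell. Their mean level lay between 10.15 and 10.21 on R1E adriamycin arrays, 10.57 and 10.60 on UV arrays and 10.83 and 10.88 on mock arrays. In p53-/- cells the same mean lay between 9.55 and 9.58 with adriamycin and between 9.57 and 9.72 without. There 0 of the 12 were called, where 0.0803% of all genes fell and 0.015% rose. The 9 fibroblast markers averaged 6.73 to 7.10 on p53-/- adriamycin arrays and 6.94 to 7.04 on untreated p53-/- arrays. In R1E they averaged 5.01 to 5.15 on adriamycin arrays, 5.05 to 5.20 on UV arrays and 4.97 to 5.07 on mock arrays. Col1a1, a fibroblast collagen, had a mean of 9.93 in untreated p53-/- cells and 6.80 in R1E mock cells, and Pdgfrb, another of the 9, had 6.24 and 5.99. The 7 endoderm and mesoderm markers averaged 6.44 in untreated p53-/- cells and 5.78 in R1E mock cells. The 7 neural and trophectoderm markers averaged 5.92 and 5.64. These levels are given side by side as deposited, without a test, and the array medians also differed, at 5.58 to 5.71 in p53-/- cells and 5.90 to 6.05 in R1E cells. The part of these marker levels in the results below was not tested, and in bulk samples fewer cells of a type and less RNA per cell cannot be told apart. Among the p53-/- arrays, untreated replicate 3 stood apart, with an array weight of 0.269 against 0.801 to 3.22 for the other 5, and values that turn on it are also given without it.

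Adriamycin lowered most of these enzymes and subunits in R1E cells. Of the 48 members 39 fell (81.2%), 4 rose and 5 were not called, where 25.6% of all genes fell and 22.1% rose. Their median change was -0.30, against -0.02 over all genes. The 4 that rose were Pcgf3, Phf1, Phc2 and Dot1l. A fall or rise of at least 2-fold was seen in 5 members, Sfmbt2, Phf19, Pcgf5, Kmt2c and, upward, Pcgf3, where 1.46% of all genes fell and 3.91% rose by as much. After UV 34 members fell (70.8%), 4 rose and 10 were not called, where 21.2% of all genes fell and 22.6% rose. The members' median after UV was -0.22, against 0.03 over all genes. UV lowered 4 members at least 2-fold, Sfmbt2, Kmt2c, Kdm4c and Kdm6a, where 0.692% of all genes fell and 1.87% rose by as much. Among brighter genes, those left when genes below the median level are dropped, calls were more common, and 47 of the 48 members belong there. Of these 9968 genes 43.1% fell and 30.2% rose after adriamycin, against 39 and 4 of the 47 members, and 37.5% fell and 30.9% rose after UV, against 34 and 4 of the 47. Treated and mock arrays did not overlap for 38 lower and 4 higher members after adriamycin, where 24.8% of all genes were lower and 20.8% higher without overlap, and for 31 lower and 4 higher members after UV, where 20.2% of all genes were lower and 20.6% higher. The adriamycin and UV comparisons share the 4 mock arrays, so their values stand side by side and are not independent of each other.

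**Figure D1:**
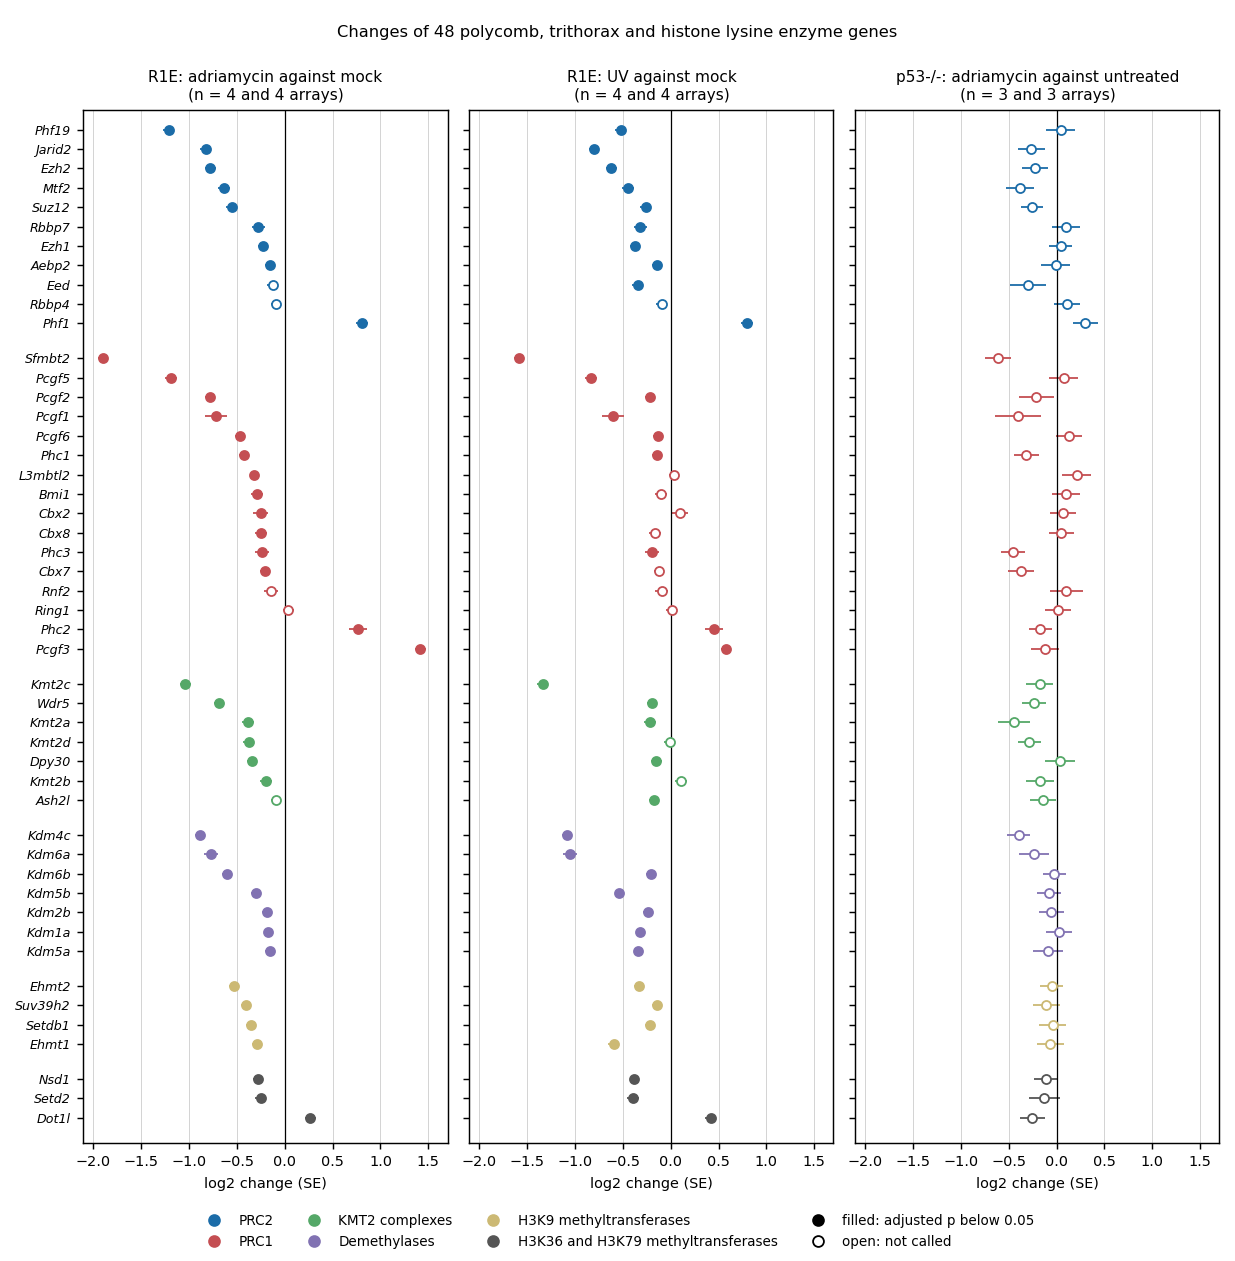
Change of each of the 48 members on the log2 scale after adriamycin in R1E cells, after UV in R1E cells and after adriamycin in p53-/- cells, grouped by class, with bars of 1 SE and filled points for called members. Most R1E points lie left of 0, with Sfmbt2 farthest left at -1.90 after adriamycin and -1.58 after UV, and no point of the p53-/- panel is filled.

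Each array was also centred on its own median. This step lowers every change by the gap between the groups' array medians, 0.125 after adriamycin and 0.077 after UV. It moves all changes downward, so it could not test whether the falls held. With centring 43 members fell and 4 rose after adriamycin, where 48.4% of all genes fell and 16.5% rose. After UV with centring 38 members fell and 4 rose, where 28.5% of all genes fell and 15.6% rose. The falls added by centring were Eed, Rbbp4, Rnf2 and Ash2l after adriamycin and Rbbp4, Bmi1, Cbx7 and Cbx8 after UV. Over all genes centring turned 4397 higher and 5110 lower calls after adriamycin (46.3% higher) into 3281 and 9640 (25.4% higher), and 4515 and 4236 after UV (51.6% higher) into 3102 and 5678 (35.3% higher). With quantile normalization 36 members fell and 4 rose after adriamycin, where 28.1% of all genes fell and 21.0% rose. After UV with quantile normalization 29 members fell and 4 rose, where 22.7% of all genes fell and 19.9% rose. The 12 stem cell markers fell by a median of 0.56 after adriamycin and 0.27 after UV, and the part of that change in the members' counts was not tested.

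In PRC2, 8 of 11 members fell and 1 rose after adriamycin in R1E cells, and 9 fell and 1 rose after UV. Over all genes 25.6% fell and 22.1% rose after adriamycin, and 21.2% fell and 22.6% rose after UV. The 3 polycomb-like proteins, which read histone H3 and guide PRC2 to CpG islands, did not move together. Phf19 fell, Mtf2 fell and Phf1 rose. Phf19 had levels of 5.76, 5.78, 5.85 and 5.94 on the adriamycin arrays, 6.41, 6.54, 6.57 and 6.56 on the UV arrays and 7.09, 6.94, 7.06 and 7.07 on the mock arrays. The 3 groups did not overlap, with UV between the others. Its change was -1.21 ± 0.06 after adriamycin, a 2.31-fold fall (adjusted p = 2.39e-11), and -0.52 ± 0.06 after UV (adjusted p = 1.1e-06). Phf1 had levels of 7.48, 7.62, 7.70 and 7.53 with adriamycin, 7.46, 7.65, 7.61 and 7.56 with UV and 6.80, 6.82, 6.84 and 6.64 with mock treatment. Every treated array was above every mock array, and the treated groups overlapped each other. Phf1 rose by 0.81 ± 0.06 after adriamycin, 1.75-fold (adjusted p = 1.35e-08), and by 0.80 ± 0.06 after UV (adjusted p = 2.96e-08). Mtf2, the third of these proteins, changed by -0.63 ± 0.06 after adriamycin and -0.44 ± 0.06 after UV.

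The catalytic subunit Ezh2, which methylates lysine 27, had levels of 9.84, 9.85, 9.95 and 9.91 on adriamycin arrays, 10.13, 9.92, 10.13 and 10.0 on UV arrays and 10.63, 10.67, 10.66 and 10.70 on mock arrays. All 8 treated arrays were below all 4 mock arrays. Ezh2 fell by 0.78 ± 0.05 after adriamycin (adjusted p = 3.74e-09) and by 0.62 ± 0.05 after UV (adjusted p = 9.94e-08). Its paralog Ezh1 had changes of -0.23 ± 0.05 and -0.37 ± 0.05, both called. Suz12, the scaffold of the complex, fell by 0.55 ± 0.06 after adriamycin and 0.26 ± 0.06 after UV. Eed, which binds trimethylated lysine 27, was at -0.13 ± 0.06 after adriamycin (adjusted p = 0.0831, not called) and fell by 0.34 ± 0.06 after UV, but a second, dim probe of Eed gave -0.12 and 0.01. Eed was also called lower after adriamycin with arrays centred on their medians (adjusted p = 0.0014), with dim genes left out (0.0483), with the mean of its probes (0.0427) and with a trend and robust prior (0.042). It was not called under the other alternatives, among them quantile normalization, where it was at -0.06.

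Jarid2, an accessory subunit that helps place PRC2 on chromatin, had levels of 10.52, 10.47, 10.37 and 10.40 with adriamycin, 10.38, 10.46, 10.45 and 10.58 with UV and 11.28, 11.26, 11.31 and 11.22 with mock treatment. The treated arrays overlapped each other and lay below every mock array. Jarid2 fell by 0.83 ± 0.05 after adriamycin (adjusted p = 1.48e-09) and 0.80 ± 0.05 after UV (adjusted p = 4.32e-09). Aebp2, its companion in the same form of PRC2, fell by 0.15 ± 0.05 and 0.15 ± 0.05, the fall after UV ending without mock replicate 1 (adjusted p = 0.0705) or mock replicate 3 (adjusted p = 0.0593). Of the histone-binding subunits Rbbp7 fell by 0.28 ± 0.07 and 0.32 ± 0.07, and Rbbp4 was not called, at -0.09 ± 0.06 and -0.09 ± 0.06.

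Promoter sequences of the members were read from RefSeq (assembly GRCm38.p6, 250 bases before to 50 after each start) and searched for an E2F site, TTTCCCGC or TTTGGCGC on either strand, the site of the cell cycle factors E2F. The table held 58 windows of 41 members, of which 3 windows (5.17%) held a match, 1 each in Ezh2, Phf19 and Suz12, all PRC2 genes that fell, and 1.56% of all 32851 promoter windows held one. A further search for a p53 half-site, the 10-base unit p53 binds in pairs, was added after the values were seen. It matched 3 of the 58 windows (5.17%), of Phf1, Pcgf2 and Kdm4c, and 8.36% of all windows. The 4 PRC2 promoters with a match are shown so that the match can be seen in its context, 5′ to 3′ on the gene's strand, with the match in capitals. A match is a description of the letters and no evidence of binding. The window of Ezh2 is chr6:47594981-47595280 on the minus strand, with the match starting at position 4 from the start site. That of Phf19 is chr2:34913927-34914226 on the minus strand, with the match, read on the other strand as TTTCCCGC, starting at position -208 from the start site. That of Suz12 is chr11:79992856-79993155 on the plus strand, with the match starting at position -219 from the start site. That of Phf1 is chr17:26932877-26933176 on the plus strand, with the p53 half-site starting at position 25 from the start site.
Ezh2: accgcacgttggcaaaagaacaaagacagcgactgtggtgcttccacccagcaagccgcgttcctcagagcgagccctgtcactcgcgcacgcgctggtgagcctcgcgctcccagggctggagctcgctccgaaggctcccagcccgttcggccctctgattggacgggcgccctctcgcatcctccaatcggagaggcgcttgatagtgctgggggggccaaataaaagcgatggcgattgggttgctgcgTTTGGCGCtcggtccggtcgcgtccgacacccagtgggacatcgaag
Phf19: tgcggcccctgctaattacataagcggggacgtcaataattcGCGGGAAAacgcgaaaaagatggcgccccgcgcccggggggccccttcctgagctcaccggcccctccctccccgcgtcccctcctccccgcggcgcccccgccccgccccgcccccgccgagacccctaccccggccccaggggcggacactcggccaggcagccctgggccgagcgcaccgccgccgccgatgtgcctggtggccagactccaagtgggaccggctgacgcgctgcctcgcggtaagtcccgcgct
Suz12: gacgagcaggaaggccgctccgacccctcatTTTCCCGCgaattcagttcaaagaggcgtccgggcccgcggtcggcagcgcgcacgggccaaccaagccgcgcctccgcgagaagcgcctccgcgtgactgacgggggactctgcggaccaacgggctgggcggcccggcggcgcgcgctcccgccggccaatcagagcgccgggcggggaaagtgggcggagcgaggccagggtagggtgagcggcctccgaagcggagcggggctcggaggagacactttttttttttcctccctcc
Phf1: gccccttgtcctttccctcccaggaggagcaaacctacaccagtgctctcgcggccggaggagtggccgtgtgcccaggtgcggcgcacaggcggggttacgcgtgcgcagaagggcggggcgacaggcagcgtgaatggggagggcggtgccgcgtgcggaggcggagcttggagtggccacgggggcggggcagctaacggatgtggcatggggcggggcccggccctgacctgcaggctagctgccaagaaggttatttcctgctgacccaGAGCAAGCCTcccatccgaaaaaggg

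In PRC1, 12 of 16 members fell (75.0%) and 2 rose after adriamycin, and 7 fell (43.8%) and 2 rose after UV. Of all genes 25.6% fell and 22.1% rose after adriamycin, and 21.2% fell and 22.6% rose after UV. Of the brighter genes 43.1% fell after adriamycin and 37.5% after UV, so the PRC1 share after UV was near theirs. The E3 ligases that ubiquitylate histone H2A were not called after either treatment: Ring1 was at 0.04 ± 0.06 after adriamycin and 0.01 ± 0.06 after UV, and Rnf2 at -0.14 ± 0.07 and -0.09 ± 0.07. Rnf2 had an adjusted p of 0.107 after adriamycin, was called there when only the 2 groups compared were fitted (adjusted p = 0.0278), and was called after UV without UV replicate 1 (adjusted p = 0.0308). Changes were called among the PCGF proteins, the partners of the ligases that set which form of PRC1 is made. Pcgf3 had levels of 10.05, 10.10, 9.99 and 9.98 with adriamycin, 9.17, 9.29, 9.08 and 9.22 with UV and 8.66, 8.61, 8.58 and 8.59 with mock treatment. Its 3 groups did not overlap, with adriamycin highest. Pcgf3 rose 2.67-fold after adriamycin (1.42 ± 0.05, adjusted p = 1.51e-12) and 1.49-fold after UV (0.58 ± 0.05, adjusted p = 1.68e-07). Pcgf5, its closest paralog, had levels of 6.75, 6.66, 6.78 and 6.80 with adriamycin, 7.18, 6.99, 7.03 and 7.21 with UV and 8.06, 7.87, 7.92 and 7.89 with mock treatment. These groups were again separate, in the opposite order. Pcgf5 fell 2.27-fold after adriamycin (-1.18 ± 0.06, adjusted p = 1.02e-10) and 1.78-fold after UV (-0.83 ± 0.06, adjusted p = 1.5e-08).

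Among the other PCGF proteins, Pcgf1, of the form that Kdm2b brings to CpG islands, fell by 0.72 ± 0.12 after adriamycin and 0.60 ± 0.12 after UV. Pcgf2 fell by 0.78 ± 0.05 after adriamycin and 0.22 ± 0.05 after UV. Bmi1, its paralog in the canonical complex, fell by 0.29 ± 0.06 after adriamycin and was at -0.10 ± 0.06 after UV (adjusted p = 0.217). Pcgf6 fell by 0.47 ± 0.05 after adriamycin and 0.13 ± 0.05 after UV, and L3mbtl2, a methyl-lysine reader of the same form of PRC1, fell by 0.32 ± 0.05 after adriamycin and was at 0.03 ± 0.05 after UV. The UV call of Pcgf6 ended without mock replicate 1 or 3 or UV replicate 3 or 4, where adjusted p lay between 0.0521 and 0.0894. It also ended with quantile normalization (adjusted p = 0.125).

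Sfmbt2, a protein with methyl-lysine-binding MBT repeats whose Drosophila relative joins polycomb at its DNA elements, had the largest fall of the 48 members after each treatment. Its levels were 7.08, 7.13, 7.08 and 7.16 with adriamycin, 7.34, 7.42, 7.48 and 7.47 with UV and 9.08, 9.0, 9.03 and 8.93 with mock treatment. The treated and mock arrays lay over 1 log2 unit apart. It fell 3.73-fold after adriamycin (-1.90 ± 0.05, adjusted p = 3.71e-14) and 3-fold after UV (-1.58 ± 0.05, adjusted p = 1.11e-12). The polyhomeotic proteins, which polymerise and cluster PRC1, split: Phc2 rose by 0.76 ± 0.09 after adriamycin and 0.46 ± 0.09 after UV, while Phc1 fell by 0.42 ± 0.05 and 0.15 ± 0.05. Phc3 fell by 0.23 ± 0.07 and 0.19 ± 0.07. Phc3 was no longer called after adriamycin without adriamycin replicate 4 (adjusted p = 0.0594) or mock replicate 1 (0.0621). After UV its call ended without mock replicate 1 or 3 or UV replicate 1, 3 or 4 (0.0521 to 0.173). The UV call of Phc1 ended without mock replicate 4 (0.0538) or UV replicate 1 (0.0619). With quantile normalization Phc1 was at -0.04 after UV (adjusted p = 0.624) and not called. The chromodomain readers of methylated lysine 27 fell after adriamycin, Cbx2 by 0.25 ± 0.08, Cbx7 by 0.20 ± 0.05 and Cbx8 by 0.25 ± 0.07. After UV they were at 0.10, -0.12 and -0.16 with 0 of the 3 called. Leaving out UV replicate 2 called Cbx7 (adjusted p = 0.0158), and leaving out mock replicate 3 (0.00999) or UV replicate 4 (0.0351) called Cbx8. Cbx8 was also called after UV with quantile normalization (-0.27, adjusted p = 0.00171) and with the replicate block (0.0347), and both genes with centring (0.00562 and 0.00672). Cbx8 was dim in R1E, at 4.81 to 5.27, below the array medians of 5.90 to 6.05. The Cbx2 call after adriamycin ended without adriamycin replicate 4 (0.0547) or mock replicate 4 (0.0657).

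**Figure D2:**
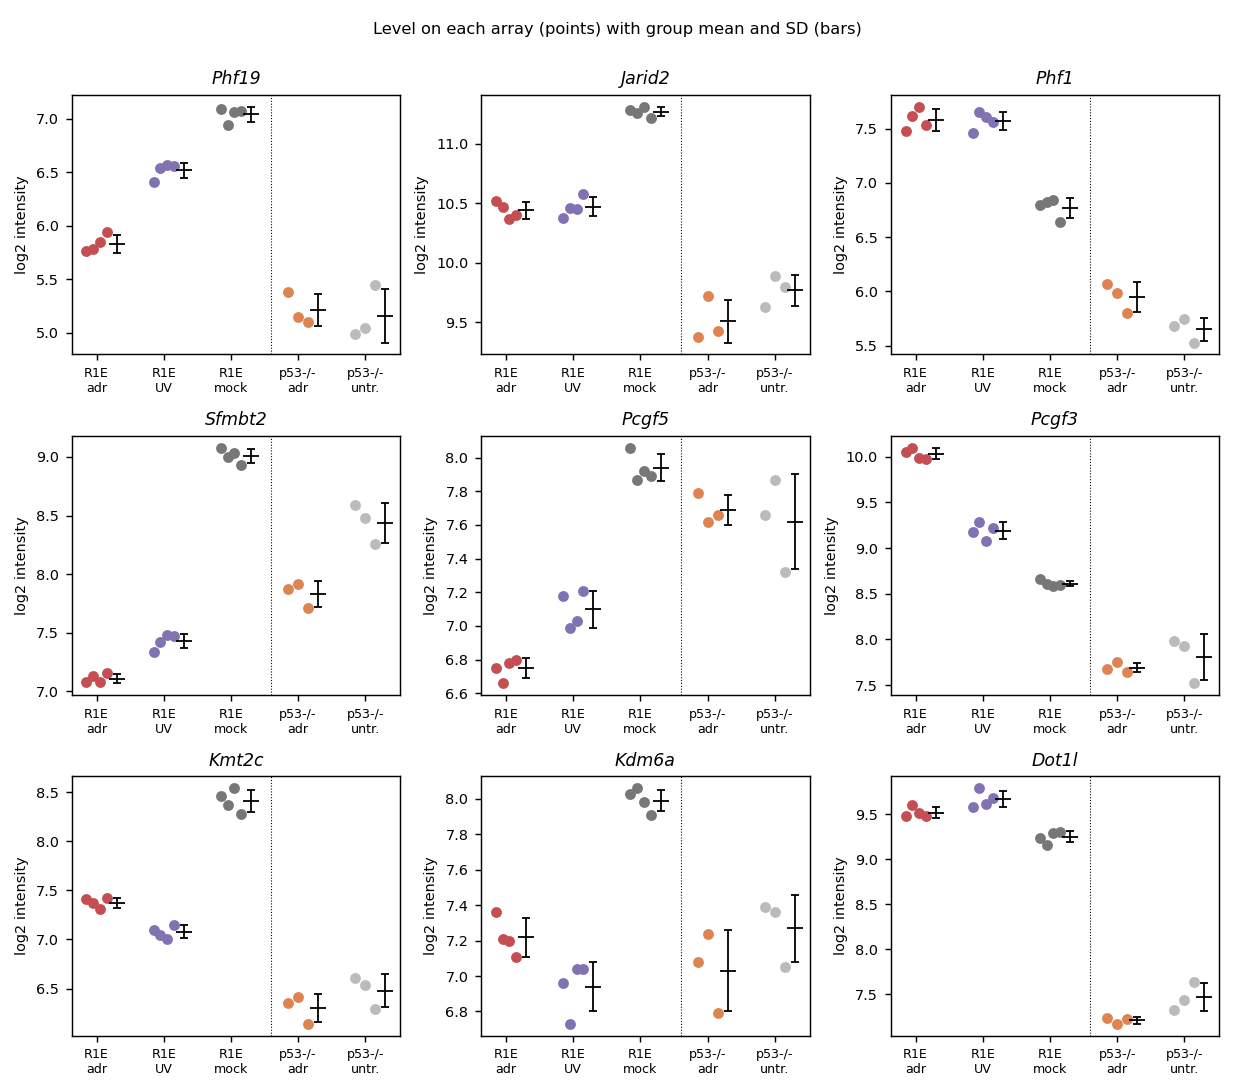
Log2 intensity of 9 members on each of the 18 arrays, with the mean and SD of each group; R1E groups (n = 4) and p53-/- groups (n = 3) were normalized separately. In R1E cells Pcgf3 is higher and Pcgf5 and Sfmbt2 are lower, with no overlap between treated and mock arrays, while in p53-/- cells Phf19, Pcgf3 and Pcgf5 adriamycin points sit among or near the untreated ones.

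In the KMT2 complexes 6 of 7 members fell after adriamycin and 5 of 7 after UV, and 0 rose. Over all genes 25.6% fell and 22.1% rose after adriamycin, and 21.2% fell and 22.6% rose after UV. Kmt2c, an enhancer methyltransferase of lysine 4, had levels of 7.41, 7.37, 7.31 and 7.42 with adriamycin, 7.10, 7.05, 7.0 and 7.15 with UV and 8.46, 8.37, 8.54 and 8.28 with mock treatment. All treated arrays were below all mock arrays, and the UV arrays were the lowest. Kmt2c fell 2.05-fold after adriamycin (-1.04 ± 0.06, adjusted p = 2.9e-10) and 2.53-fold after UV (-1.34 ± 0.06, adjusted p = 3.57e-11). Its paralog Kmt2d fell by 0.38 ± 0.06 after adriamycin and was at -0.01 ± 0.06 after UV, and a second probe of Kmt2d gave -0.61 and -0.16. Wdr5, a subunit that all KMT2 complexes share, had levels of 9.34, 9.32, 9.21 and 9.19 with adriamycin, 9.75, 9.75, 9.78 and 9.75 with UV and 9.91, 9.98, 9.93 and 10.0 with mock treatment. The adriamycin arrays were apart from the rest, and the UV arrays lay just under the mock arrays. Wdr5 fell by 0.68 ± 0.05 after adriamycin (adjusted p = 4.04e-09) and by 0.19 ± 0.05 after UV (adjusted p = 0.00363, and 0.0556 with quantile normalization).

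Kmt2a, the promoter methyltransferase mutated by translocation in leukemia, had levels of 8.05, 8.06, 7.93 and 7.99 with adriamycin, 8.16, 8.21, 8.06 and 8.28 with UV and 8.45, 8.34, 8.51 and 8.28 with mock treatment. The adriamycin arrays were below the mock arrays, and the highest UV array and the lowest mock array both read 8.28. Kmt2a had a fall of 0.39 ± 0.06 after adriamycin (adjusted p = 4.96e-05) and 0.22 ± 0.06 after UV (adjusted p = 0.00832). Its paralog Kmt2b fell by 0.19 ± 0.06 after adriamycin (adjusted p = 0.0124, and 0.0575 with quantile normalization) and was at 0.11 ± 0.06 after UV. Of the remaining shared subunits, Dpy30 fell by 0.34 ± 0.05 and 0.15 ± 0.05, and Ash2l was at -0.09 ± 0.05 after adriamycin (adjusted p = 0.174) and fell by 0.17 ± 0.05 after UV. The UV call of Dpy30 ended without mock replicate 1 or 2 or UV replicate 2, 3 or 4, where adjusted p lay between 0.0562 and 0.118. With quantile normalization the UV calls of Dpy30 (adjusted p = 0.225) and Ash2l (adjusted p = 0.114) both ended.

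All 7 demethylases fell after adriamycin and all 7 after UV, where 25.6% and 21.2% of all genes fell. Kdm6a, a demethylase of lysine 27 that sits in the KMT2C and KMT2D complexes, had levels of 7.36, 7.21, 7.20 and 7.11 with adriamycin, 6.96, 6.73, 7.04 and 7.04 with UV and 8.03, 8.06, 7.98 and 7.91 with mock treatment. Every treated array was below every mock array. Kdm6a fell by 0.77 ± 0.07 after adriamycin (adjusted p = 1.1e-07) and by 1.05 ± 0.07, 2.07-fold, after UV (adjusted p = 4.75e-09). Kdm6b, the inducible demethylase of the same mark, fell by 0.60 ± 0.05 after adriamycin and 0.20 ± 0.05 after UV. Kdm4c, which demethylates lysine 9, had levels of 9.02, 8.94, 9.08 and 9.05 with adriamycin, 8.80, 8.76, 8.84 and 8.88 with UV and 9.92, 9.94, 9.94 and 9.81 with mock treatment. Its treated arrays were again all below the mock arrays, with falls of 0.88 ± 0.05 after adriamycin (adjusted p = 2.88e-10) and 1.08 ± 0.05 after UV (adjusted p = 6.48e-11). The lysine 4 demethylases Kdm5a, Kdm5b and Kdm1a fell by 0.15 ± 0.05, 0.30 ± 0.05 and 0.17 ± 0.04 after adriamycin and by 0.34 ± 0.05, 0.54 ± 0.05 and 0.32 ± 0.04 after UV. Kdm2b, the CpG-binding subunit of the PCGF1 form of PRC1, fell by 0.18 ± 0.05 and 0.23 ± 0.05. The adriamycin call of Kdm5a ended without adriamycin replicate 3 (adjusted p = 0.06) or mock replicate 3 (0.0796), and with quantile normalization (0.0682), and that of Kdm1a with quantile normalization (0.425).

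All 4 enzymes of lysine 9 fell after each treatment, where 25.6% of all genes fell after adriamycin and 21.2% after UV. Ehmt2 (G9a) and Ehmt1 (GLP) form the dimer that places mono- and dimethylation in euchromatin. Ehmt2 had levels of 8.67, 8.70, 8.77 and 8.83 with adriamycin, 8.86, 8.98, 8.97 and 8.98 with UV and 9.26, 9.24, 9.34 and 9.26 with mock treatment. Ehmt1 had levels of 8.12, 8.12, 8.24 and 8.21 with adriamycin, 7.86, 7.89, 7.84 and 7.89 with UV and 8.53, 8.38, 8.55 and 8.41 with mock treatment. Adriamycin arrays were lowest for Ehmt2, and UV arrays were lowest for Ehmt1. Ehmt2 fell by 0.53 ± 0.05 after adriamycin (adjusted p = 2.02e-07) and 0.33 ± 0.05 after UV (adjusted p = 6.66e-05). Ehmt1 fell by 0.29 ± 0.05 after adriamycin (adjusted p = 0.000189) and 0.60 ± 0.05 after UV (adjusted p = 1.03e-07). Suv39h2, which trimethylates lysine 9 in heterochromatin, had levels of 7.65, 7.53, 7.54 and 7.52 with adriamycin, 7.87, 7.70, 7.91 and 7.81 with UV and 7.99, 7.96, 7.98 and 7.90 with mock treatment. Adriamycin arrays lay below mock arrays, and UV arrays overlapped them. Suv39h2 fell by 0.40 ± 0.05 after adriamycin (adjusted p = 8.72e-06) and 0.14 ± 0.05 after UV (adjusted p = 0.0465), the UV call ending without mock replicate 1, 2 or 3 or UV replicate 2 or 4 (adjusted p = 0.0843 to 0.153). Setdb1, which silences retroelements, fell by 0.35 ± 0.05 and 0.22 ± 0.05.

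Of the 3 enzymes of H3K36 and H3K79, Nsd1 and Setd2 fell and Dot1l rose after each treatment. Nsd1, a dimethyltransferase of lysine 36, had levels of 9.93, 9.99, 10.0 and 10.03 with adriamycin, 9.90, 9.94, 9.80 and 9.91 with UV and 10.30, 10.24, 10.34 and 10.19 with mock treatment. Setd2, which trimethylates lysine 36 behind elongating polymerase, had levels of 8.68, 8.57, 8.76 and 8.55 with adriamycin, 8.51, 8.47, 8.5 and 8.51 with UV and 8.96, 8.95, 8.93 and 8.73 with mock treatment. For Setd2 mock replicate 4 lay below the other 3 mock arrays and overlapped the adriamycin arrays. Nsd1 fell by 0.28 ± 0.05 after adriamycin (adjusted p = 0.00019) and 0.38 ± 0.05 after UV (adjusted p = 1.16e-05). Setd2 fell by 0.25 ± 0.06 after adriamycin (adjusted p = 0.0025) and 0.39 ± 0.06 after UV (adjusted p = 5.6e-05). Dot1l, the methyltransferase of H3K79, had levels of 9.48, 9.60, 9.51 and 9.48 with adriamycin, 9.58, 9.79, 9.62 and 9.68 with UV and 9.24, 9.16, 9.29 and 9.30 with mock treatment. Every treated array was above every mock array, a rise of 0.27 ± 0.06 after adriamycin (adjusted p = 0.00063) and 0.42 ± 0.06 after UV (adjusted p = 1.01e-05).

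Adriamycin was then set directly against UV in R1E cells. Of the 48 members 22 were lower with adriamycin, 11 were higher and 15 were not called, where 22.2% of all genes were lower and 19.8% higher. The 2 groups of arrays did not overlap for 18 lower and 12 higher members, where 19.9% of all genes were lower and 18.4% higher without overlap. Of the 9968 brighter genes 35.0% were lower and 31.6% higher, against 22 and 12 of 47 members. A difference of at least 2-fold was called in 0 members, where 0.281% of all genes were lower and 1.07% higher by as much. Lower with adriamycin stood the PRC2 protein Phf19 at -0.69 ± 0.06 (adjusted p = 7.05e-08), the PCGF protein Pcgf2 at -0.56 ± 0.05 (adjusted p = 7.17e-08), the shared KMT2 subunit Wdr5 at -0.49 ± 0.05 (adjusted p = 5.23e-07) and the lysine 27 demethylase Kdm6b at -0.40 ± 0.05 (adjusted p = 8.61e-06). Pcgf3 was higher with adriamycin by 0.84 ± 0.05 (adjusted p = 3.42e-09). The demethylases were split, with 5 of 7 higher with adriamycin (Kdm6a, Kdm5a, Kdm5b, Kdm1a and Kdm4c, by 0.15 ± 0.04 to 0.28 ± 0.07) Kdm6b lower and Kdm2b not called. Kmt2c at 0.30 ± 0.06 and Ehmt1 at 0.30 ± 0.05 were also higher with adriamycin, that is, lowered less by it than by UV. No difference was detectable at this precision for Jarid2 (-0.03, 95% interval -0.14 to 0.09) or Phf1 (0.02, -0.12 to 0.15). Of the 33 calls 10 were lost under some alternative: the calls of Bmi1, Dot1l, Ezh1, Ezh2, Kmt2a, Mtf2, Phc2 and Setdb1 each ended with at least 1 of the adriamycin or UV arrays left out (adjusted p = 0.0508 to 0.139, over adriamycin replicates 1 to 4 and UV replicates 1 to 4), that of Eed with the mean of its probes (adjusted p = 0.544), and that of Kdm1a with arrays centred on their medians (0.0737).

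The genomic length of the members (span, as annotated by RefSeq on GRCm38.p6) is set here beside these changes. Of the 48 members 9 span more than 100 kb: Kmt2c (227.1 kb), Sfmbt2 (224.8 kb), Jarid2 (190.9 kb), Kdm4c (163.4 kb), Ehmt1 (128.9 kb), Kdm6a (119.1 kb), Kdm2b (118.6 kb), Pcgf5 (112.6 kb) and Nsd1 (108.5 kb). Phc2, just under the limit at 98.23 kb, rose. After UV all 9 fell, with a median of -0.83, against a median of -0.14 and 48.2% lower over all 2294 genes above 100 kb. The 39 shorter members had a median of -0.17 after UV, with 25 lower (64.1%) and 4 higher (10.3%), whereas of the 17559 genes at or under 100 kb 17.8% fell and 24.5% rose (median 0.04). After adriamycin all 9 also fell, with a median of -0.83, although all genes above 100 kb had a median of -0.01 with 26.2% lower. The 39 shorter members had a median of -0.28 after adriamycin, with 30 lower (76.9%) and 4 higher (10.3%), whereas of shorter genes in all 25.6% fell and 21.4% rose (median -0.02). Directly compared, the 9 long members had a median of 0.10 for adriamycin minus UV, with 4 higher (44.4%) and 2 lower (22.2%), whereas 54.5% of all genes above 100 kb were higher and 4.58% lower (median 0.22). The 39 shorter members had a median of -0.14, with 7 higher (17.9%) and 20 lower (51.3%), whereas 15.3% of shorter genes in all were higher and 24.5% lower (median -0.06). Across the 48 members, which share their arrays, the Spearman rho of change with span was -0.164 after adriamycin, -0.521 after UV and 0.469 for adriamycin against UV, where all genes gave 0.035, -0.294 and 0.403.

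**Figure D3:**
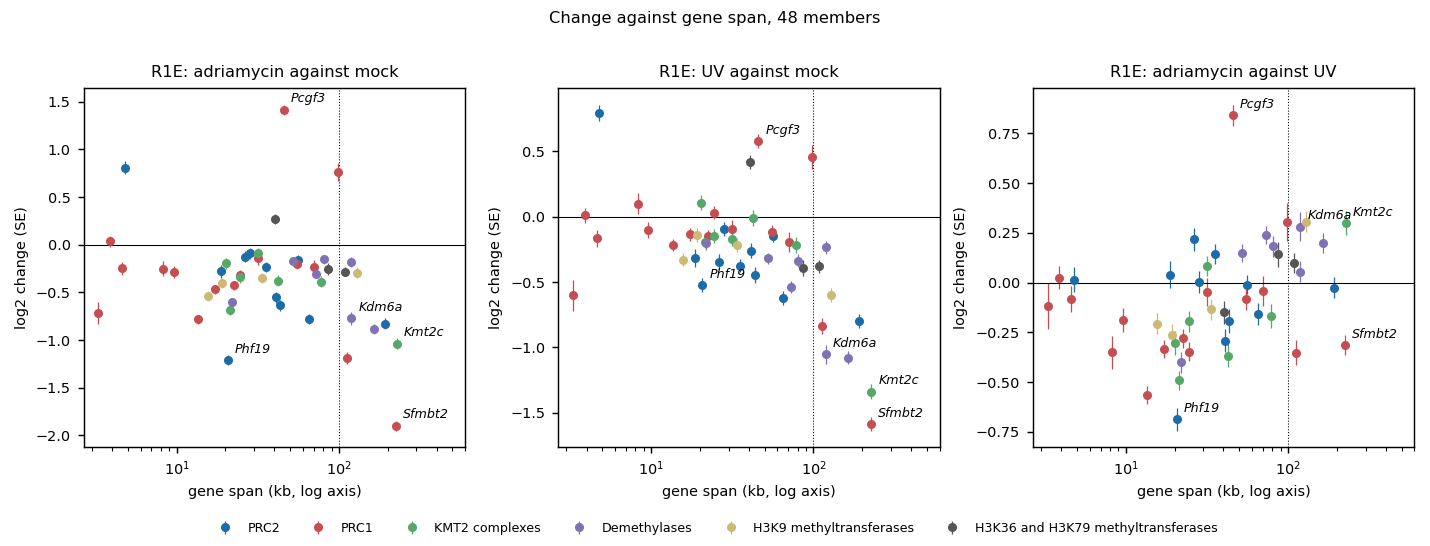
Log2 change of the 48 members against gene span in kb (log axis) after adriamycin, after UV and for adriamycin against UV in R1E cells. The 9 members above 100 kb lie below 0 in the first 2 panels, and in the third they lie on both sides of 0 with a median of 0.10.

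In p53-/- cells adriamycin called 0 of the 48 members in limma, where 0.0803% of all genes fell and 0.015% rose. At an unadjusted p below 0.05 there were 9 lower members and 1 higher, where 3.93% of all genes were lower and 7.71% higher. The members' median was -0.11, against 0.06 over all genes, and lay between -0.06 and -0.15 as each array was left out, nearest to 0 without adriamycin replicate 3 (-0.06), untreated replicate 1 (-0.06) or untreated replicate 2 (-0.07) and farthest without untreated replicate 3 (-0.15). The median SE of a member's change was 0.137 in this set, against 0.055 in R1E. Adriamycin and untreated arrays did not overlap for 12 lower members and 1 higher, where 5.22% of all genes were lower and 12.3% higher without overlap. Sfmbt2 had levels of 7.87, 7.92 and 7.71 with adriamycin and 8.59, 8.48 and 8.26 untreated. All 3 adriamycin arrays lay below all 3 untreated arrays, with a change of -0.61 ± 0.13 (adjusted p = 0.157). Without untreated replicate 3 Sfmbt2 was called, at -0.70 (adjusted p = 0.0207), the single member so called, where 1.54% of all genes fell and 0.677% rose without that array. The other members with an unadjusted p below 0.05 were Phc3 at -0.45, Kmt2a at -0.44, Kdm4c at -0.40, Mtf2 at -0.38, Cbx7 at -0.37, Phc1 at -0.32, Kmt2d at -0.29, Suz12 at -0.26 and Phf1 at 0.30, with adjusted p between 0.22 and 0.428. With arrays weighted by their precision 6 members were lower, Sfmbt2, Phc3, Mtf2, Kmt2a, Eed and Kdm4c, where 3.69% of all genes fell and 3.52% rose. Fibroblast markers on these arrays lay between 6.73 and 7.10 with adriamycin and 6.94 and 7.04 untreated, and 0 of the 9 were called.

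For the members that changed most in R1E cells the p53-/- arrays read as follows. Phf19 had 5.38, 5.15 and 5.10 with adriamycin and 4.99, 5.05 and 5.45 untreated, and its groups overlapped. Its untreated levels lay below the medians of those arrays, 5.58 to 5.61, and whether a fall could show from so low a level was not tested. Pcgf3 had 7.68, 7.75 and 7.64 with adriamycin and 7.98, 7.93 and 7.52 untreated, again overlapping, with untreated replicate 3 the lowest of the 6. Pcgf5 had 7.79, 7.62 and 7.66 with adriamycin and 7.66, 7.87 and 7.32 untreated, likewise with untreated replicate 3 the lowest. These changes were 0.04 ± 0.15 for Phf19, -0.12 ± 0.14 for Pcgf3 and 0.07 ± 0.15 for Pcgf5. Without untreated replicate 3 they were 0.19 ± 0.13 for Phf19, -0.26 ± 0.12 for Pcgf3 and -0.08 ± 0.13 for Pcgf5, a change of sign for Pcgf5, with 0 of the 3 called. Jarid2 had 9.38, 9.72 and 9.43 with adriamycin and 9.63, 9.89 and 9.80 untreated. Ezh2 had 9.88, 9.91 and 9.72 with adriamycin and 10.15, 10.21 and 9.82 untreated. The groups overlapped for both genes, with changes of -0.26 ± 0.14 for Jarid2 and -0.23 ± 0.14 for Ezh2. Phf1 had 6.07, 5.99 and 5.80 with adriamycin and 5.68, 5.75 and 5.53 untreated, without overlap (0.30 ± 0.13, adjusted p = 0.412). Dot1l had 7.24, 7.17 and 7.23 with adriamycin and 7.32, 7.44 and 7.64 untreated, lower on every adriamycin array (-0.25 ± 0.13, adjusted p = 0.474). Kmt2c had 6.35, 6.41 and 6.14 with adriamycin and 6.61, 6.54 and 6.29 untreated, at -0.18 ± 0.14. Without untreated replicate 3 the values were -0.35 ± 0.12 for Ezh2, -0.17 ± 0.12 for Dot1l and -0.27 ± 0.13 for Kmt2c, with 0 of the 3 called.

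The question of p53 dependence was put to the difference of the adriamycin effects, the change in R1E cells minus the change in p53-/- cells, with each set's own spread. In this difference genotype and cell line cannot be told apart, nor can they be parted from the separate processing of the sets. Of the 48 members 14 had a more negative effect in R1E and 4 a more positive one, where 11.4% of all genes were called lower and 10.4% higher. Among brighter genes 13 of 46 members were lower and 4 higher, where 19.2% of 9068 genes were lower and 13.0% higher. The difference reached 2-fold in 4 members, Pcgf3, Sfmbt2, Pcgf5 and Phf19, where 1.76% of all genes were lower and 3.37% higher by as much. The 4 positive ones were Pcgf3, Phc2, Dot1l and Phf1. Pcgf3 differed by 1.54 (95% interval 1.21 to 1.86, adjusted p = 2.52e-06), with a change of 1.42 in R1E and -0.12 in p53-/- cells. Phc2 differed by 0.93 (interval 0.62 to 1.25, adjusted p = 5.76e-05), with 0.76 in R1E and -0.17 in p53-/- cells. Dot1l differed by 0.52 (adjusted p = 0.012), with 0.27 in R1E and -0.25 in p53-/- cells.

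On the negative side stood Sfmbt2 at -1.29 (interval -1.59 to -0.98, adjusted p = 6.54e-06), Pcgf5 at -1.26 (interval -1.61 to -0.91, adjusted p = 3.02e-05) and Phf19 at -1.25 (interval -1.60 to -0.91, adjusted p = 3.23e-05). Kmt2c followed at -0.86 (adjusted p = 0.000446), then Pcgf6 at -0.60 (adjusted p = 0.00687) and Kdm6b at -0.58 (adjusted p = 0.0033). These 6, with Pcgf3, Phc2 and Dot1l, were called under all of the 22 alternatives that tested them. Phf19, below the median level in p53-/- cells, dropped out of the alternative with dim genes left out. The part of that low level in its difference was not tested. The other 9 differences were Ezh2 at -0.55, Jarid2 at -0.56, Phf1 at 0.51, Pcgf2 at -0.57, L3mbtl2 at -0.53, Wdr5 at -0.45, Kdm6a at -0.54, Kdm4c at -0.48 and Ehmt2 at -0.48, with adjusted p between 0.0118 and 0.0462. Each of these 9 was lost when some single array was left out, 7 of them without p53-/- adriamycin replicate 2 and 5 without replicate 1. Ehmt2 was lost without p53-/- adriamycin replicate 1, Phf1 without p53-/- adriamycin replicate 3 or untreated replicate 2, and the other 7 without p53-/- adriamycin replicate 2, several also without other p53-/- arrays, with adjusted p between 0.0514 and 0.181. Pcgf2, which held the highest adjusted p of the called differences, was also lost without R1E mock replicate 1 (0.0534) or R1E adriamycin replicate 4 (0.0544) and with the replicate block (0.0765), and Wdr5 with quantile normalization (0.0508). The negative count was 7 without p53-/- adriamycin replicate 2, 9 without p53-/- adriamycin replicate 1 and 13 without untreated replicate 3, where Pcgf2 (0.0987) and Kdm6a (0.0582) were lost and Cbx2 (0.0295) was gained. Of all genes 7.97%, 7.75% and 12.4% were lower in those fits, in the same order. For 30 members the difference was not called, among them Suz12 at -0.29 (interval -0.57 to -0.02), Mtf2 at -0.25 (interval -0.59 to 0.08) and Kmt2a at 0.06 (interval -0.32 to 0.43).

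**Figure D4:**
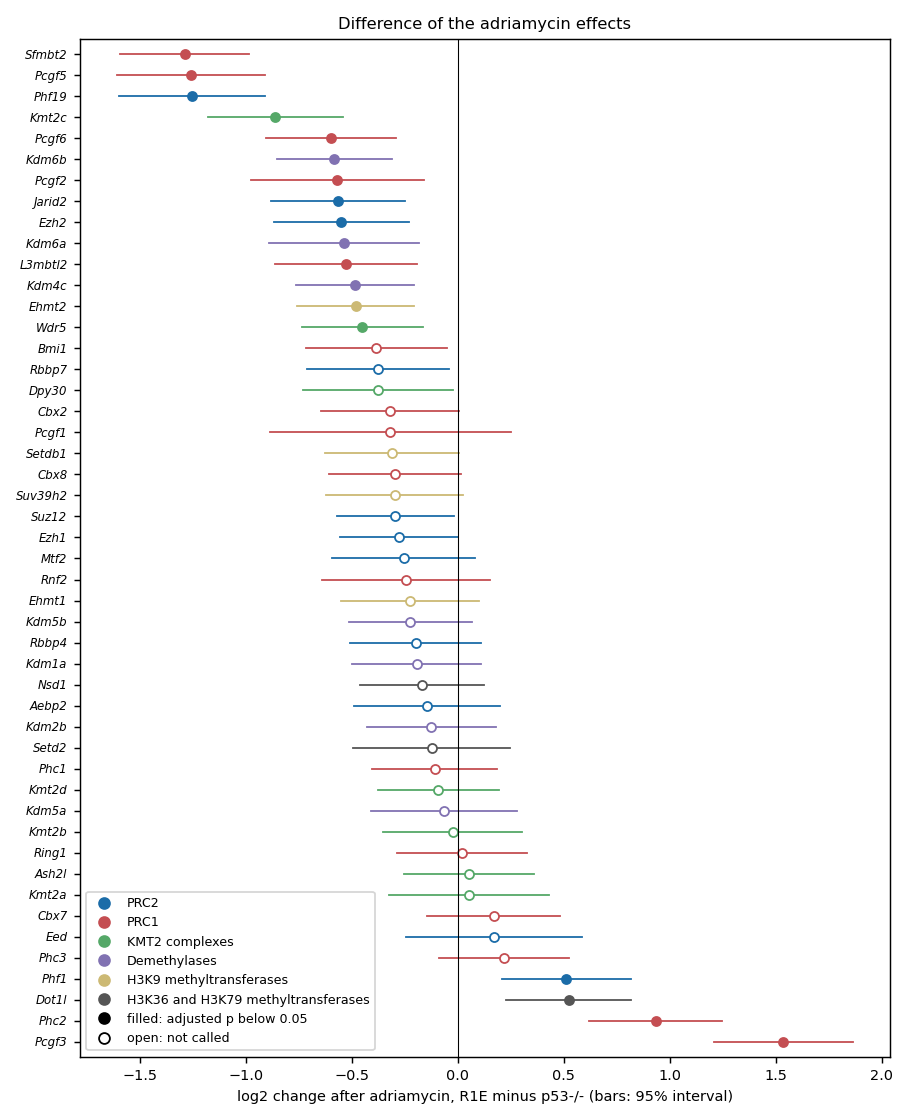
Adriamycin effect in R1E cells minus that in p53-/- cells for the 48 members on the log2 scale, sorted, with 95% intervals and filled points for called members. Pcgf3 (1.54) and Phc2 (0.93) stand at one end and Sfmbt2 (-1.29), Pcgf5 (-1.26) and Phf19 (-1.25) at the other, and 18 of the 48 points are filled.

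Beyond the members, 85 further genes of the same complexes and enzyme families were listed, of which 80 were measured. After adriamycin in R1E 47 of the 80 fell (58.8%) and 14 rose (17.5%), with a median of -0.22, where 25.6% of all genes fell and 22.1% rose. After UV 43 fell (53.8%) and 12 rose (15.0%), with a median of -0.14, where 21.2% of all genes fell and 22.6% rose. By class, 11 of 13 further KMT2 and SETD1 genes fell after adriamycin and 0 rose, 7 of 8 further PRC2 and PR-DUB genes fell and 1 rose, 7 of 17 further PRC1 genes fell and 4 rose, 12 of 20 further demethylases fell and 5 rose, and 10 of 22 further lysine methyltransferases fell and 4 rose, the last with a median of -0.06. The largest falls after adriamycin were in Kdm3a, a lysine 9 demethylase, at -1.47 ± 0.05, Bcor, a subunit of the PCGF1 form of PRC1, at -1.13 ± 0.05, and Uty, the Y-linked paralog of Kdm6a, at -0.87 ± 0.07. Hr, a lysine 9 demethylase and corepressor, rose most, by 1.84 ± 0.06, followed by the demethylase Phf8 by 0.89 ± 0.04 and Fbrs, a partner of PCGF3 and PCGF5 complexes, by 0.60 ± 0.06. After UV the largest falls were in the methyltransferase Smyd3 at -1.29 ± 0.06, Uty at -1.11 ± 0.07 and the lysine 36 methyltransferase Nsd2 at -0.89 ± 0.08, and the largest rises in Hr at 1.52 ± 0.06, Fbrs at 0.63 ± 0.06 and the PRC2 inhibitor Ezhip at 0.46 ± 0.08. For adriamycin against UV 30 were lower (37.5%) and 22 higher (27.5%), where 22.2% of all genes were lower and 19.8% higher, with Kdm3a at -0.90 ± 0.05, the PRC2 subunit Epop at -0.89 ± 0.08 and Setd1b at -0.83 ± 0.08 lowest, and Phf8 at 1.00 ± 0.04, Smyd3 at 0.88 ± 0.06 and Sfmbt1 at 0.79 ± 0.05 highest. In p53-/- cells 0 of the 80 were called, where 0.0803% of all genes fell and 0.015% rose. The adriamycin effect was more negative in R1E for 21 of the 80 (26.2%, where 11.4% of all genes were), led by Kdm3a at -1.09 ± 0.14, Smyd5 at -0.83 ± 0.17 and Wdr82 at -0.77 ± 0.13, and more positive for 5 (6.25%, where 10.4% of all genes were), led by Hr at 1.58 ± 0.14, Fbrs at 0.73 ± 0.15 and Phf8 at 0.65 ± 0.14.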

How the data were processed

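The authors deposited log2 intensities, 1 value per probe and array, for 18 arrays. The submitters' processing notes name Affymetrix Expression Console 1.1 for R1E arrays, with no algorithm, and name Partek 6.4 and RMA for p53-/- arrays. The Expression Console algorithm and the genome build are not given in the sources used here. Separate normalization of the sets is why levels were tested only within a set.

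Of 28853 probes, 28815 were complete over the arrays: 21780 with 1 gene symbol, 1605 with several and 5430 with none. Only probes with 1 symbol were used, and per gene the probe with the highest mean over 18 arrays, which left 19935 genes. Names came from the platform's annotation, and 21689 probes were matched by Entrez ID to RefSeq (GRCm38.p6).

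Changes were fitted in limma 3.58.1 (R 4.3.3) (lmFit, then eBayes) on the values as deposited, without covariate or filter, over the 12 R1E arrays and, apart, the 6 p53-/- arrays. For the difference of effects the 2 changes were subtracted, with the root of their summed squared standard errors and Satterthwaite degrees of freedom. Adjustment was by Benjamini-Hochberg over all genes. Intervals are 95%. The fits were also run on simulated arrays with few genes changed, unlike the many called in R1E, and no result here rests on that run. The number of arrays limits the precision. As nothing states that arrays are separate cultures, the p-values may reflect technical spread alone.

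The members and lists were chosen with earlier results of these data known. Within each class, per-array values were given for the called members with the 2 largest falls and the largest rise after each R1E treatment, and of the other genes the 3 largest called falls and rises were named; further members and values were added where a sentence needed them. Alternatives covered array centring, quantile normalization, the mean of all probes, dim genes left out, the eBayes prior, array weights, a replicate block, the arrays in the fit, a shared spread and each array left out. The p53 half-site search was added after the values were seen. No protein sequences were used here.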

Additional observations from a re-analysis of the deposited data

Results flagged for a closer look

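Among the 144 groups of 4 arrays checked (48 members in 3 R1E groups), 6 held 1 array far from the other 3. Chance alone marks about 1 in 20 groups. Cbx2 stood at 8.37 on R1E adriamycin replicate 1, against 8.06 to 8.08 on the other 3 adriamycin arrays. Ash2l read 10.36 on R1E adriamycin replicate 3, where the others read 10.24 to 10.26. L3mbtl2 and Ehmt2 were low on R1E UV replicate 1, at 9.69 for L3mbtl2 (others 9.78 to 9.80) and 8.86 for Ehmt2 (others 8.97 to 8.98). Dpy30 had 10.64 on R1E mock replicate 2, above 10.52 to 10.54 on the other mock arrays, and Setd2 had 8.73 on R1E mock replicate 4, below 8.93 to 8.96.

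The adriamycin effect differed between R1E and p53-/- cells by a test of the difference for 18 members, 14 lower and 4 higher. Of all genes 11.4% were lower and 10.4% higher. The log2 difference, R1E minus p53-/-, was positive for Pcgf3 (1.54), Phc2 (0.93), Dot1l (0.52) and Phf1 (0.51). In PRC2 it was negative for Phf19 (-1.25), Jarid2 (-0.56) and Ezh2 (-0.55). In PRC1 it was negative for Sfmbt2 (-1.29), Pcgf5 (-1.26), Pcgf6 (-0.60), Pcgf2 (-0.57) and L3mbtl2 (-0.53). Among the KMT2 subunits, demethylases and lysine 9 enzymes it was negative for Kmt2c (-0.86), Wdr5 (-0.45), Kdm6b (-0.58), Kdm6a (-0.54), Kdm4c (-0.48) and Ehmt2 (-0.48). Of 12 stem cell markers 9 also had a more negative effect in R1E, where 11.4% of all genes did. The part of the marker changes in these differences was not tested.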

How the results depend on the processing

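No called member changed direction under any alternative run. Calls held in all alternatives that tested the member for 38 of 43 members after adriamycin in R1E (16 alternatives), 30 of 38 after UV (16), 23 of 33 for adriamycin against UV (16) and 9 of 18 for the difference of effects (22). With dim genes left out the call of Cbx8 after adriamycin in R1E and that of Phf19 for the difference were not tested, and both are counted here as held. In p53-/- cells, where 0 members were called, array weights gave 6 lower, with 3.69% of all genes lower. Leaving out an array there gave 0 to 1, with 1 without untreated replicate 3, where 1.54% of all genes were lower. For the difference of effects, leaving out an array gave 7 to 14 members lower, where 7.75% to 12.4% of all genes were lower. There were 9 without p53-/- adriamycin replicate 1 (7.75% of all genes) and 7 without replicate 2 (7.97%). A fit with 1 spread shared by all 18 arrays gave 18 lower and 4 higher, where 16.2% of all genes were lower and 12.9% higher. With the replicate number as a block 39 members fell and 4 rose after adriamycin (25.3% and 21.9% of all genes). After UV 33 fell and 4 rose (21.1% and 22.4% of all genes). For adriamycin against UV 19 were lower and 10 higher with the block (21.8% and 19.6% of all genes). In p53-/- cells 0 were called with it (0.0251% of all genes were lower). For the difference 13 were lower and 4 higher (11.5% and 10.5% of all genes). Arrays of the same number did not deviate together, with correlations between -0.142 and 0.191, so the replicate numbers were not taken to pair arrays. Array brightness near background could not be judged from the deposited values, and the p53-/- set, with a median SE of 0.14 over all genes against 0.063 in R1E, limits what its comparison and the difference can show.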
